A study of Saccharomyces cerevisiae with 9 samples.

Results

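The region described here is the middle segment of the 25S rRNA sequence, cut into 3 of equal length, within the 35S rRNA gene of Saccharomyces cerevisiae. It comprises every nucleotide that the deposited tables assign to 25S with a gene coordinate from 4384 to 5515, which gave 1132 of the 6858 nucleotides of the gene, or 16.5% of them. In build R64 these lie on the minus strand at chrXII:462055-463186, inside RDN37-2, the 35S precursor gene, and RDN25-2, its 25S part, and they are nucleotides 1133 to 2264 of 25S. A protein-coding gene, YLR154C-G, is also annotated within the interval. Its boundaries rest on coordinates alone and used no measured value, but the region was chosen with earlier results of these data known.

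Occupancy of RNA polymerase I (Pol I) was measured by native elongating transcript sequencing (NET-seq), in which the polymerase is immunoprecipitated together with the RNA it holds and the last nucleotide of that RNA is read by sequencing. There were 3 libraries of the wild type (WT), 3 of a strain without RPA34 (rpa34Δ) and 3 of a strain without RPA49 (rpa49Δ). All 9 were untreated budding yeast grown at 30 °C, and all came from an immunoprecipitation of Pol I. The labels name no other allele, do not say how many clones of each deletion were used and do not say whether the libraries were separate cultures, so the p-values below speak only to how far these libraries lie apart.

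Pol I is the polymerase that makes the 35S precursor, from which 18S, 5.8S and 25S rRNA are cut. Rpa34 and Rpa49 are Pol I subunits that bind each other as a heterodimer on the enzyme, related to the Pol II factor TFIIF, and Rpa49 also carries a part related to TFIIE. Both are dispensable for growth, and Rpa49 is known for roles in initiation and elongation. The study asked how RPA49 affects the position of Pol I on the gene. In the folded ribosome, the middle of 25S runs from the later part of domain II through domain III into domain IV.

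The sequences at which the results below turn are given first, as RNA in the 5′ to 3′ direction, read from the base column of the deposited tables. The first set holds the positions with the highest values in WT or the largest changes. Each line has the 20 nucleotides before and the 10 after a position, and the capital marks the last nucleotide of the RNA in the polymerase.
position 4429 (chrXII:463131-463161): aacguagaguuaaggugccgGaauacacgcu
position 4598 (chrXII:462962-462992): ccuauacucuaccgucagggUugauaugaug
position 5046 (chrXII:462514-462544): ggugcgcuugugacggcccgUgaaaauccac
position 5158 (chrXII:462402-462432): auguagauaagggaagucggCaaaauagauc
position 5338 (chrXII:462222-462252): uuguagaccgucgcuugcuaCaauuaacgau
position 5374 (chrXII:462186-462216): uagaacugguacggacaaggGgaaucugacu
position 4514 (chrXII:463046-463076): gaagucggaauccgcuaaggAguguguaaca
position 5254 (chrXII:462306-462336): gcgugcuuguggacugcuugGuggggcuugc
position 4729 (chrXII:462831-462861): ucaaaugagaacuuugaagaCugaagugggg
position 5094 (chrXII:462466-462496): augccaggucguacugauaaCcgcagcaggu

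The second set holds the 3 stretches of 50 nucleotides that rose most in rpa49Δ and the 1 that was called lower. Capitals mark the nucleotides that were themselves called different from WT in the direction of the stretch, by the test given below. The first 3 stretches rose, with 38, 36 and 39 capitals, and the last fell, with 23.
positions 4451 to 4500 (chrXII:463070-463119): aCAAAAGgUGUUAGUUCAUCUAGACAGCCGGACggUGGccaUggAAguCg
positions 5151 to 5200 (chrXII:462370-462419): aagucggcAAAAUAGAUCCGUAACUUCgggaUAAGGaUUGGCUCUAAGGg
positions 5201 to 5250 (chrXII:462320-462369): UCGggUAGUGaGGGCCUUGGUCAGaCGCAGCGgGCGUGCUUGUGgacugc
positions 4951 to 5000 (chrXII:462570-462619): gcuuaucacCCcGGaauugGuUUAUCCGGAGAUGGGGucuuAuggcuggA

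Capitals ran through most of the letters of the 3 stretches that rose and were not restricted to 1 base. Guanine and cytosine made up 52% of the first stretch, 46% of the second, 66% of the third and 52% of the last, and from 38% to 66% of all 22 stretches of 50 nucleotides that lie wholly in the region. The region as a whole held 293 A, 234 C, 339 G and 266 U.

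The values in the tables are reads per 1000000 (RPM). They are whole multiples of what 1 read is worth, so reads could be recovered, and the libraries held from 1242139 to 5353045 reads over the whole gene and from 260666 to 977639 in the middle of 25S. Depth moved with the strain: the WT libraries were the deepest and the rpa49Δ libraries the shallowest, with no overlap, and its part in the results was not tested. Every position of the region held reads in every library. On log2(RPM + 10), libraries of the same strain correlated at Pearson's r from 0.964 to 0.989 over the 1132 positions, WT with rpa34Δ at 0.915 to 0.951, and WT with rpa49Δ at 0.863 to 0.891. These positions are not independent of each other, and libraries of 1 strain still differed by more than sampling noise.

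The middle of 25S took a larger share of Pol I in the deletions, most of all in rpa49Δ. Of all reads on the gene, 18.6%, 18.4% and 18.3% ended there in the WT libraries, 19.4%, 19.3% and 19.4% in rpa34Δ, and 20.8%, 20.7% and 21.0% in rpa49Δ. The libraries of the strains did not overlap: all rpa34Δ values lay above WT and all rpa49Δ values above rpa34Δ. The means were 18.4% ± 0.164 (SD, n = 3), 19.3% ± 0.0672 (SD, n = 3) and 20.8% ± 0.157 (SD, n = 3). The rise over WT was 0.937 percentage points in rpa34Δ and 2.41 in rpa49Δ, and the deletions differed by 1.47. Each of these differences had p = 0.1 in a two-sided exact permutation test, the smallest p that 3 libraries against 3 can give, and 0.138 after Benjamini-Hochberg adjustment over 36 tests of this kind. Both deletions were compared with the same WT libraries. Counting error was small beside these differences, since the exact binomial 95% interval of the shallowest library ran from 20.9% to 21.1%; it covers counting error only.

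A share of the whole gene also moves with the reads in the transcribed spacers, so it was computed a second time over mature rRNA (18S, 5.8S and 25S). On this scale the gap between WT and rpa34Δ nearly closed, and that between WT and rpa49Δ shrank but remained. The middle of 25S held 20.4%, 20.2% and 20.5% of mature rRNA reads in WT, 20.5%, 20.6% and 20.5% in rpa34Δ, and 21.4%, 21.2% and 21.5% in rpa49Δ. The highest WT library lay just under the lowest rpa34Δ library, and all rpa49Δ libraries lay above both strains. Over WT the gain was 0.184 points in rpa34Δ and 1.02 in rpa49Δ, and the deletions differed by 0.836, each with an exact permutation p of 0.1.

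**Figure D1:**
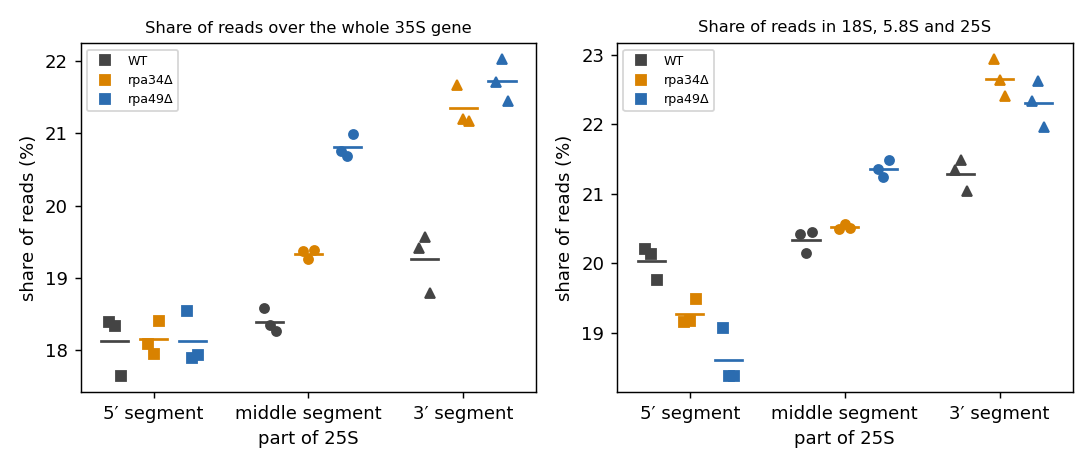
Share of Pol I reads in the 5′, middle and 3′ segments of 25S, in percent of the reads of the whole gene (left) and of mature rRNA (right), with 1 point per library (3 per strain) and a line at the mean. In the middle segment the means rise from 18.4% in WT to 19.3% in rpa34Δ and 20.8% in rpa49Δ on the left, and from 20.3% to 20.5% and 21.4% on the right; the axes do not start at 0.

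The neighbouring segments of 25S moved differently, and how they moved depended on the scale. On the whole-gene scale the mean per position in the middle segment was 163 ± 1.45 RPM in WT, 171 ± 0.594 in rpa34Δ and 184 ± 1.39 in rpa49Δ (SD, n = 3), with no overlap. In the 5′ segment it was 160 RPM in each strain, and the libraries overlapped. In the 3′ segment it was 170 ± 3.61, 189 ± 2.50 and 192 ± 2.55 RPM, where the deletions overlapped each other and both lay above WT. On this scale the deletions were separated from each other as well as from WT in the middle segment only. On the mature rRNA scale the 5′ segment fell without overlap between any of the strains, from 20.04% ± 0.244 of mature rRNA reads in WT to 19.3% ± 0.186 in rpa34Δ and 18.6% ± 0.400 in rpa49Δ (SD, n = 3). The 3′ segment then held 21.3% ± 0.221, 22.7% ± 0.268 and 22.3% ± 0.329, where the deletions again overlapped each other (SD, n = 3).

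Relative to the 5′ segment, the middle segment gained in both deletions. The log2 ratio of reads in the middle segment over the 5′ segment was 0.02 ± 0.0252 in WT, 0.09 ± 0.0150 in rpa34Δ and 0.20 ± 0.0324 in rpa49Δ (SD, n = 3), and no libraries of different strains overlapped (exact permutation p = 0.1 for each pair). Relative to the 3′ segment it fell in rpa34Δ, from a log2 ratio of -0.07 ± 0.0256 in WT to -0.14 ± 0.0178, and these libraries did not overlap (exact permutation p = 0.1). In rpa49Δ that ratio was -0.06 ± 0.0297 and overlapped WT, with a difference of 0.0035 (exact permutation p = 0.8). The middle segment held 33.0% ± 0.384 of all 25S reads in WT, 32.9% ± 0.111 in rpa34Δ, which overlapped WT, and 34.3% ± 0.396 in rpa49Δ, which lay above both (SD, n = 3).

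Within the region, occupancy rose and fell along the RNA in the same broad pattern in each strain. In sums over 50 nucleotides, the highest stretch was 5151 to 5200 in every strain, at 14420, 16662 and 19966 RPM in WT, rpa34Δ and rpa49Δ. The next highest, 5201 to 5250, held 12552, 12829 and 17216 RPM. Directly after it came the lowest stretch in every strain, 5251 to 5300, at 2912, 3185 and 3164 RPM. The read-weighted mean position, counted from the start of the region, was 575 ± 2.97 nucleotides in WT, 583 ± 3.51 in rpa34Δ and 581 ± 2.89 in rpa49Δ. The rpa34Δ libraries lay downstream of WT without overlap (exact permutation p = 0.1), and the rpa49Δ libraries overlapped both.

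**Figure D2:**
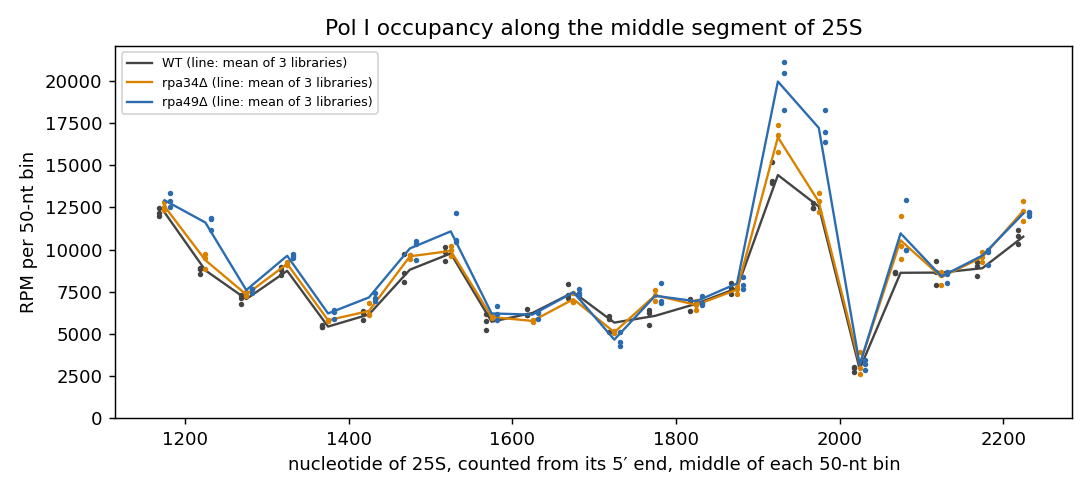
Pol I occupancy along the middle segment of 25S in sums over 50 nucleotides, in RPM scaled on the whole gene, against the nucleotide of 25S at the middle of each stretch; points are single libraries and lines the means of 3. Gene positions 5151 to 5250, which are nucleotides 1900 to 1999 of 25S, are highest in every strain, and there rpa49Δ lies furthest above WT; the next stretch is the lowest in every strain.

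Stretches were tested with limma on log2(RPM + 10), fitted over all 138 stretches of the gene and a stretch was called where its Benjamini-Hochberg adjusted p was under 0.05. Against WT, 4 of the 22 stretches of the region rose in rpa34Δ and 0 fell, where 15.9% of all stretches of the gene rose and 21% fell. By edgeR the counts were also 4 and 0, and the number with an unadjusted limma p under 0.05, in either direction, was 4. In rpa49Δ 11 rose and 1 fell, where 30.4% of all stretches rose and 31.9% fell. Between the deletions 4 were higher in rpa49Δ and 0 lower, where 10.1% of all stretches were higher and 28.3% lower; edgeR again gave 4 and 0, and 5 had an unadjusted limma p under 0.05 in either direction. The region's stretches therefore rose at a share above that of the whole gene in rpa49Δ and near it in rpa34Δ, and fell at a lower share in both. Falls were also few in mature rRNA as a whole. Of its 104 stretches, which include these 22, 20 rose and 4 fell in rpa34Δ, and 40 rose and 14 fell in rpa49Δ. Between the deletions 14 of the 104 were higher and 11 lower. The shares were not tested against each other.

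The mature rRNA scale left fewer stretches. On it 2 rose and 1 fell in rpa34Δ (6.52% and 26.1% of the gene's stretches), 4 rose and 1 fell in rpa49Δ (10.9% and 40.6%), and 2 were higher and 0 lower in rpa49Δ than in rpa34Δ (6.52% and 34.1%). In the last comparison 4 had an unadjusted limma p under 0.05 in either direction, and edgeR was not run on this scale. The 4 that rose in rpa49Δ on this scale were 4451 to 4500, 5151 to 5200, 5201 to 5250 and 5301 to 5350. Of the 104 mature rRNA stretches, 8 rose and 11 fell in rpa34Δ, and 14 rose and 25 fell in rpa49Δ. Between the deletions 9 of them were higher and 19 lower. The counts also moved with single libraries on the whole-gene scale: without WT replicate 2 the 12 calls of rpa49Δ against WT became 5, and without rpa34Δ replicate 1 the 4 calls of each of the other comparisons became 2.

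The stretch from 5201 to 5250 differed between the deletions. It held 12742, 12454 and 12461 RPM in WT, 12899, 13348 and 12242 in rpa34Δ, and 18302, 16962 and 16382 in rpa49Δ. The WT and rpa34Δ libraries overlapped and all 3 rpa49Δ libraries lay above them. By limma the log2 change was 0.45 (SE 0.0656, adjusted p = 4.86e-05) in rpa49Δ against WT, 0.03 (SE 0.0471, adjusted p = 0.652) in rpa34Δ against WT, and 0.42 (SE 0.0653, adjusted p = 0.000305) between the deletions. The rise in rpa49Δ was spread out, as the capitals of its sequence show: 39 of its 50 positions were called higher than WT, and 38 higher than rpa34Δ. Of the gene's tested positions 27.1% and 10.9% were. The stretch was named for its rise in these same comparisons, so these counts are a description. On the mature rRNA scale the log2 changes were 0.35 in rpa49Δ and -0.03 in rpa34Δ, so that the sign of the latter depended on the scale. When the stretch was represented by its median position, rpa34Δ was called higher than WT (log2 change 0.17, SE 0.0494, adjusted p = 0.015 by limma).

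The adjoining stretch from 5151 to 5200 rose in both deletions, further in rpa49Δ. It held 15192, 14095 and 13972 RPM in WT, 16814, 17400 and 15773 in rpa34Δ, and 20476, 21152 and 18272 in rpa49Δ, with no overlap between strains. The log2 change by limma was 0.47 (SE 0.0781, adjusted p = 0.00018) in rpa49Δ and 0.21 (SE 0.0562, adjusted p = 0.0169) in rpa34Δ against WT, and 0.26 (SE 0.0817, adjusted p = 0.0273) between the deletions. The call of rpa34Δ against WT was lost on the mature rRNA scale, with the libraries' medians set equal, at the median position of the stretch and without either of rpa34Δ replicates 1 and 2 or WT replicates 2 and 3. The call between the deletions was lost on the mature rRNA scale and without rpa34Δ replicate 1 or 3 or rpa49Δ replicate 2.

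Near the upstream end, the stretch from 4451 to 4500 rose in rpa49Δ and was not called in rpa34Δ. Its values were 8854, 8568 and 8888 RPM in WT, 9717, 9519 and 8875 in rpa34Δ, and 11148, 11814 and 11853 in rpa49Δ. The rpa34Δ libraries overlapped WT, and the rpa49Δ libraries lay above both. By limma it rose by a log2 change of 0.40 (SE 0.0538, adjusted p = 2.28e-05) against WT and 0.31 (SE 0.0517, adjusted p = 0.000563) against rpa34Δ, where rpa34Δ against WT gave 0.09 (SE 0.0479, adjusted p = 0.151). At 46 of its 50 positions the mean was higher in rpa49Δ than in WT, and the 3 positions that rose most carried 20.1% of the gain.

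The stretch from 4951 to 5000 was the 1 that fell in rpa49Δ. It held 5085, 5860 and 6067 RPM in WT, 5037, 5097 and 5163 in rpa34Δ, and 4296, 4549 and 5139 in rpa49Δ. The highest rpa49Δ library lay above the lowest WT library, so the strains overlapped. The log2 change by limma was -0.28 (SE 0.0906, adjusted p = 0.017), and the call was lost without rpa49Δ replicate 1, WT replicate 2 or WT replicate 3. In rpa34Δ the log2 change against WT was -0.15 (SE 0.0723, adjusted p = 0.137).

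The 2 largest rises in rpa34Δ differed in the share of the gain at a few positions. The stretch from 5301 to 5350 rose by a log2 change of 0.28 (SE 0.0744, adjusted p = 0.0153 by limma), with 39 of its 50 position means above WT. Position 5338 held 23.2% of this gain and 3 positions held 46.9%. The stretch from 5001 to 5050 rose by 0.27 (SE 0.0654, adjusted p = 0.0121 by limma), with 36 of its 50 position means above WT. Of this gain position 5046 held 42.8% and 3 positions held 74.4%. When a stretch was represented by its median position, both calls were lost, as was that of rpa34Δ at 5151 to 5200 (adjusted p = 0.165 by limma), and that of 5301 to 5350 was also lost without WT replicate 1.

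**Figure D3:**
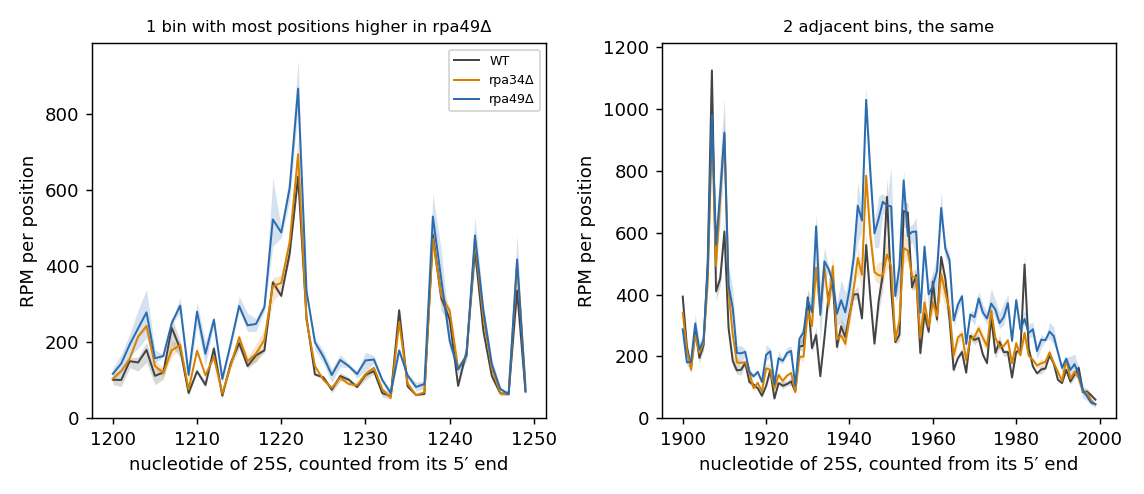
Occupancy at single positions through gene positions 4451 to 4500 (left, nucleotides 1200 to 1249 of 25S) and 5151 to 5250 (right, nucleotides 1900 to 1999), in RPM; lines are the means of 3 libraries per strain and bands their lowest to highest value. The rpa49Δ line lies above WT over most positions of both panels.

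At single positions, the test was the same, and positions averaging under 10 RPM in the compared libraries were left out. It covered 1130 of the 1132 positions against WT and 1128 between the deletions; those not tested, 5400 and 5403 and in the last comparison also 5401 and 5402, were among the lowest of the region. In rpa34Δ 239 positions rose and 161 fell against WT, or 21.2% and 14.2%, where 19.8% of the tested positions of the gene rose and 23.4% fell. In rpa49Δ 412 rose and 173 fell, or 36.5% and 15.3%, where 27.1% of the gene rose and 30.5% fell. Between the deletions 180 were higher in rpa49Δ and 80 lower, or 16.0% and 7.09%, where 10.9% of the gene was higher and 19.5% lower. Of the tested mature rRNA positions, which include these, 1189 of 5321 rose and 782 fell in rpa34Δ. In rpa49Δ 1672 of 5320 rose and 1024 fell, and between the deletions 636 of 5308 were higher and 568 lower. The median log2 change of the region's tested positions was 0.06 for rpa34Δ and 0.16 for rpa49Δ against WT and 0.07 between the deletions, beside 0.01, 0.01 and 0.00 over all tested positions of the gene.

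On the mature rRNA scale the falls came closer to the rises. In rpa34Δ 171 rose and 204 fell, where 14.4% and 26.8% of the gene did. In rpa49Δ 294 rose and 233 fell, where 19.1% and 34.9% of the gene did. Between the deletions 147 were higher and 97 lower, where 8.29% and 21.6% of the gene were. Of the tested mature rRNA positions, 858 of 5321 rose and 987 fell in rpa34Δ, and 1175 of 5320 rose and 1289 fell in rpa49Δ. Of 5308 tested between the deletions, 478 were higher and 686 lower. Without rpa34Δ replicate 1, the 400 calls of rpa34Δ against WT became 256 and the 260 between the deletions became 166.

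Most of the changes were of moderate size on the whole-gene scale. Called rises had a median log2 change of 0.37 in rpa34Δ and 0.49 in rpa49Δ, and called falls of -0.40 and -0.55. At least 2-fold rises of RPM + 10 numbered 3 in rpa34Δ and 10 in rpa49Δ, and at least 2-fold falls 4 and 35. With mature rRNA scaling there were 2 and 6 such rises and 8 and 39 such falls. The falls of rpa49Δ were thus fewer than its rises but more often large. The shares of called positions by segment that follow are again on the whole-gene scale. In the direct comparison 16.0% of the middle segment was higher in rpa49Δ, against 7.87% of the 5′ segment and 8.78% of the 3′ segment. Against WT, 36.5% of the middle segment rose in rpa49Δ, beside 25.2% of the 5′ segment and 31.0% of the 3′ segment. In rpa34Δ 21.2% of the middle segment rose, beside 18.4% and 28.5%, so the 3′ segment was ahead there. The differences between segments were not tested.

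**Figure D4:**
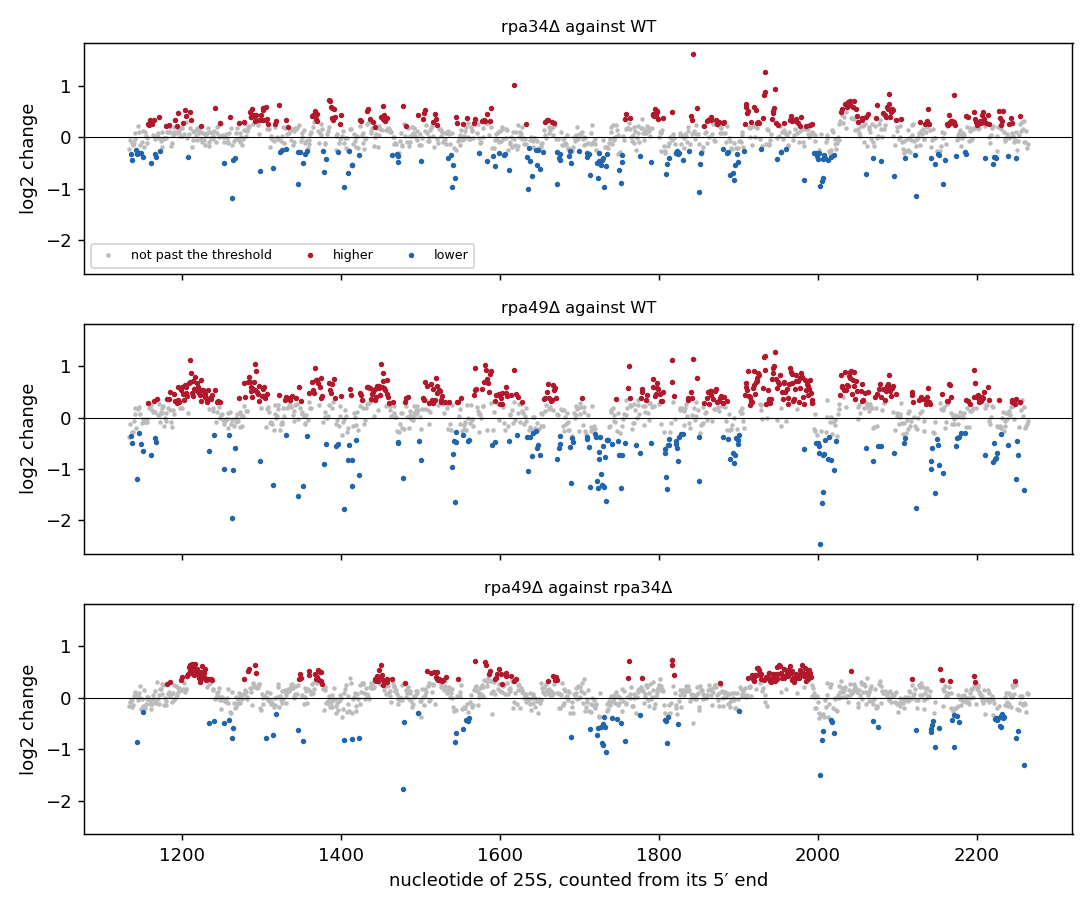
Log2 change on the log2(RPM + 10) scale at each tested position of the middle segment, against the nucleotide of 25S, with 1 panel per comparison; red and blue points were called higher and lower by limma and grey points were not called. The calls lie along the whole region, with 239 rises and 161 falls in rpa34Δ and 412 and 173 in rpa49Δ against WT, and red points are dense near nucleotides 1200 to 1249 and 1900 to 1999 in the rpa49Δ panels.

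Of the 10 positions with the highest WT means, 2 rose and 4 fell in rpa34Δ, and 3 rose and 2 fell in rpa49Δ. On the mature rRNA scale the counts in rpa49Δ were 2 and 3. These positions were chosen by the same WT values that the deletions are compared with, so the counts are a description, to be read beside the shares of all the region's positions given above. The highest, 4429, a G, held 1227, 1329 and 1415 RPM in WT, 1299, 1359 and 1261 in rpa34Δ, and 1249, 1295 and 1380 in rpa49Δ. All strains overlapped, and the log2 change by limma was -0.02 in either deletion (SE 0.104, adjusted p = 0.911 in rpa34Δ; SE 0.128, adjusted p = 0.924 in rpa49Δ). This position did not mark the top of the region in the deletions: 5046 was highest in rpa34Δ and 4598 in rpa49Δ.

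Position 5046, a U, held 943, 1245 and 1250 RPM in WT, 1714, 1643 and 1645 in rpa34Δ, and 1390, 1462 and 1741 in rpa49Δ. Every deletion library lay above every WT library. By limma it rose by a log2 change of 0.55 (SE 0.124, adjusted p = 0.00305) in rpa34Δ and 0.42 (SE 0.146, adjusted p = 0.0196) in rpa49Δ, and the latter call was lost on the mature rRNA scale (adjusted p = 0.0841) and without WT replicate 1 or rpa49Δ replicate 3.

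Position 4598, also a U, held 1060, 1101 and 1261 RPM in WT, 1339, 1433 and 1277 in rpa34Δ, and 1600, 1786 and 1835 in rpa49Δ. The strains did not overlap, with WT lowest and rpa49Δ highest. By limma the log2 change against WT was 0.61 (SE 0.133, adjusted p = 0.000773) in rpa49Δ, whereas in rpa34Δ it was 0.24 (SE 0.107, adjusted p = 0.0826) and was called only without WT replicate 3. The deletions differed by 0.36 (SE 0.116, adjusted p = 0.0269 by limma). Position 5338, a C, held 815, 841 and 964 RPM in WT, 1324, 1230 and 1403 in rpa34Δ, and 1117, 1227 and 1770 in rpa49Δ. Every deletion library lay above WT. It rose in both, by a log2 change of 0.59 (SE 0.104, adjusted p = 0.000503 by limma) and 0.62 (SE 0.154, adjusted p = 0.00219 by limma).

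Position 5374, a G, was the high position that fell furthest. It held 919, 902 and 987 RPM in WT, 412, 421 and 421 in rpa34Δ, and 237, 284 and 287 in rpa49Δ. The strains were widely separated, with WT highest and rpa49Δ lowest. By limma the log2 change against WT was -1.14 (SE 0.0816, adjusted p = 1.36e-07) in rpa34Δ and -1.76 (SE 0.111, adjusted p = 9.82e-11) in rpa49Δ, and rpa49Δ lay below rpa34Δ by a log2 change of -0.62 (SE 0.0965, adjusted p = 0.000144). Position 5409, an A, also fell in both, from 696 RPM in WT to 366 in rpa34Δ and 335 in rpa49Δ. Position 5158, a C, fell in rpa34Δ by a smaller step (log2 change -0.27, SE 0.0929, adjusted p = 0.0337 by limma), a call lost without any 1 of rpa34Δ replicates 1, 2 and 3 or WT replicates 2 and 3.

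The 5 largest falls of rpa49Δ were all at purines, as were its 5 largest rises except 5094, a C. Position 5254, a G that lies in the low stretch after 5250, held 154, 170 and 188 RPM in WT, 67.8, 94.5 and 90.3 in rpa34Δ, and 33.6, 22.3 and 15.3 in rpa49Δ. The strains did not overlap. The log2 change by limma was -2.45 (SE 0.167, adjusted p = 2.98e-10) in rpa49Δ and -0.95 (SE 0.118, adjusted p = 2.76e-05) in rpa34Δ against WT, and -1.51 (SE 0.184, adjusted p = 1.43e-05) between the deletions. Position 4514, an A, fell from 436, 405 and 533 RPM in WT to 173, 219 and 197 in rpa34Δ and 110, 119 and 99.8 in rpa49Δ, again without overlap. It gave log2 changes of -1.18 (SE 0.109, adjusted p = 1.55e-06) and -1.96 (SE 0.118, adjusted p = 4.79e-11) by limma, and was the largest fall of rpa34Δ. The other large falls of rpa49Δ were 4655, 5374 and 5256, all G.

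Several of the largest rises lay close together at 5183 to 5197, within the stretch 5151 to 5200. Position 5197, an A, held 270, 226 and 229 RPM in WT, 483, 489 and 447 in rpa34Δ, and 608, 634 and 552 in rpa49Δ, with no overlap. It was the largest rise of rpa49Δ, with a log2 change of 1.28 (SE 0.110, adjusted p = 8.56e-09 by limma), beside 0.94 (SE 0.0867, adjusted p = 1.52e-06) in rpa34Δ. Position 5184, an A, rose by 1.20 in rpa49Δ and 1.27 in rpa34Δ, and position 5183, also an A, by 1.18 and 0.83.

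The largest rise of rpa34Δ was at 5094, a C, with 61.4, 73.3 and 61.1 RPM in WT, 256, 228 and 187 in rpa34Δ, and 91.8, 288 and 139 in rpa49Δ. Every deletion library was above WT, but the rpa49Δ libraries were spread widely. The log2 change by limma was 1.63 (SE 0.114, adjusted p = 1.15e-07) in rpa34Δ and 1.14 (SE 0.243, adjusted p = 0.00058) in rpa49Δ.

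Several positions were named for the difference between the deletions. Position 4729, a C, held 295, 257 and 255 RPM in WT, 408, 444 and 396 in rpa34Δ, and 108, 119 and 114 in rpa49Δ. It lay above WT in all rpa34Δ libraries and below WT in all rpa49Δ libraries. By limma the log2 change against WT was 0.61 (SE 0.0845, adjusted p = 7.12e-05) in rpa34Δ and -1.17 (SE 0.108, adjusted p = 2.55e-08) in rpa49Δ, and the deletions differed by -1.78 (SE 0.0932, adjusted p = 1.64e-09).

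Position 5423, an A, held 260, 268 and 256 RPM in WT, 472, 487 and 457 in rpa34Δ, and 214, 247 and 258 in rpa49Δ, so that it rose in rpa34Δ (log2 change 0.83, SE 0.0743, adjusted p = 1.2e-06 by limma) and overlapped WT in rpa49Δ (-0.12, SE 0.106, adjusted p = 0.335 by limma). Position 5510, an A, had the reverse pattern, with 381, 302 and 316 RPM in WT, 299.5, 328 and 305 in rpa34Δ and 106, 133 and 119 in rpa49Δ. Its log2 change by limma was -1.40 (SE 0.118, adjusted p = 6.45e-09) in rpa49Δ and -0.09 (SE 0.0924, adjusted p = 0.453) in rpa34Δ against WT. Position 5067, an A, was the largest rise of rpa49Δ over rpa34Δ, with 93.4, 99.0 and 102 RPM in rpa34Δ and 171, 168 and 169 in rpa49Δ (log2 change 0.73, SE 0.0988, adjusted p = 3.68e-05 by limma).

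A few positions stood well above their surroundings in each strain, but most reads lay outside them. A position was called a peak where it held at least 5 times the median of the 50 positions on each side in all 3 libraries of a strain. There were 11 peaks in WT, 12 in rpa34Δ and 11 in rpa49Δ, and they held 5.39%, 5.73% and 5.16% of the region's reads. Of these, 9 were peaks in every strain: 4429, 4598, 4815, 4968, 4969, 5010, 5046, 5315 and 5338. Positions 5158 and 5374 were peaks in WT and in neither deletion, 5048 and 5314 in both deletions and not in WT, and 4797 in rpa34Δ only. Calling a peak in 1 strain does not by itself show that its height differed. Position 5374 fell in both deletions, while 5158 in rpa49Δ had 863, 1092 and 988 RPM against 1087, 1157 and 1132 in WT (log2 change -0.20, SE 0.126, adjusted p = 0.178 by limma). On the mature rRNA scale that change was called (-0.31, SE 0.127, adjusted p = 0.0493 by limma).

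Peaks shared some bases around the last RNA nucleotide. The fourth nucleotide downstream was U at 8 of 11 WT peaks, 9 of 12 rpa34Δ peaks and 9 of 11 rpa49Δ peaks, against 23.7% of all positions of the region. The nucleotide just before the last was G at 54.5% of WT peaks, against 29.9% of all positions. With 11 or 12 peaks, several of them adjacent and so sharing most of their sequence, these are descriptions with no test.

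**Figure D5:**
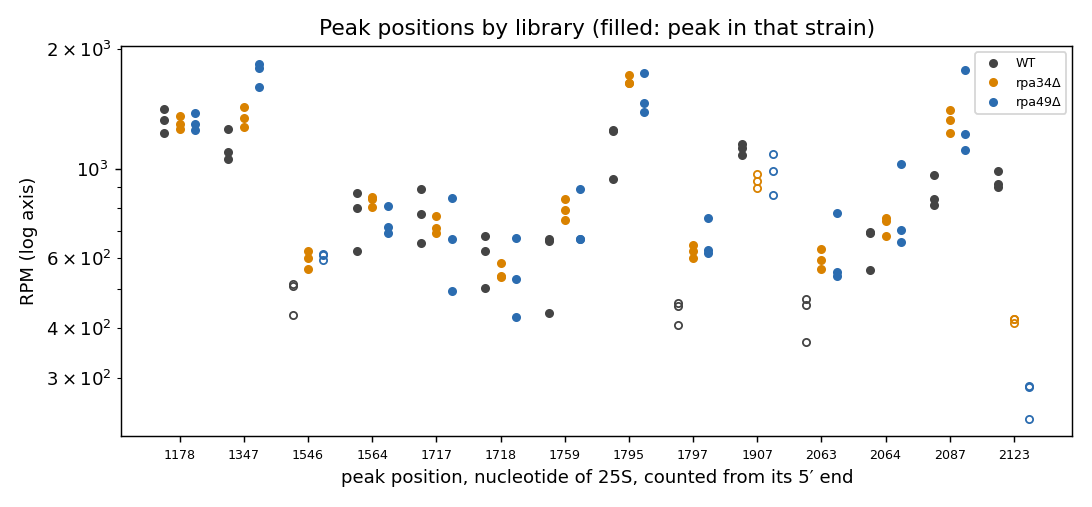
Occupancy at every position that was a peak in at least 1 strain, in RPM on a log axis, with 1 point per library (3 per strain) and positions given as nucleotides of 25S; filled points belong to a strain in which the position was a peak. Gene position 5374 (nucleotide 2123) has means of 936 RPM in WT, 418 in rpa34Δ and 269 in rpa49Δ, and 4429 (nucleotide 1178) overlaps between all strains.

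Over all 1132 positions the bases at and around the RNA end also went with occupancy. Positions with G just before the end held 1.32 times the mean of the region in WT (SD 0.00463, n = 3), beside 1.31 times in the rest of mature rRNA, and in rpa49Δ 1.21 and 1.18 times. Positions with A directly after the end held 188 ± 3.01 RPM in WT, 210 ± 2.19 in rpa34Δ and 227 ± 5.54 in rpa49Δ, and those with C after it 131 ± 2.13, 139 ± 0.700 and 152 ± 2.65 (SD, n = 3). Those with G after it held 160 ± 1.14, 165 ± 0.392 and 179 ± 0.762 RPM (SD, n = 3). With U after it they held 166 ± 2.00, 164 ± 0.897 and 171 ± 1.49 RPM (SD, n = 3), with no rise in rpa34Δ. In each strain positions before an A held more than positions before a C.

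A smaller part of the region's reads ended at G in the deletions. The share of the region's reads that ended at G was 29.4%, 28.6% and 28.6% in WT, 25.8%, 26.3% and 25.8% in rpa34Δ, and 27.0%, 26.8% and 25.7% in rpa49Δ. Both deletions lay below WT and overlapped each other. The difference from WT was -2.91 points in rpa34Δ and -2.36 in rpa49Δ, each with an exact permutation p of 0.1. In the rest of mature rRNA it was -2.04 and -2.01 points, so the fall was not seen in the middle of 25S alone.

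The share ending at U rose, from 22.9% ± 0.197 in WT to 24.3% ± 0.0743 in rpa34Δ and 24.7% ± 0.308 in rpa49Δ (SD, n = 3), with no overlap (exact permutation p = 0.1 for each pair). The share ending at A was 29.7% ± 0.238 in WT, higher in rpa34Δ at 30.5% ± 0.0924 and lower in rpa49Δ at 28.8% ± 0.493 (SD, n = 3), also without overlap (exact permutation p = 0.1 for each pair). In the rest of mature rRNA the share at U rose by 1.87 and 2.74 points, and that at A fell by 0.583 points in rpa34Δ, opposite to the region, and fell by 2.697 in rpa49Δ. Among single positions, the tested A, C, G and U positions fell at 15.8%, 6.41%, 22.7% and 8.65% in rpa34Δ and rose at 27.1%, 20.9%, 12.7% and 25.6%. In rpa49Δ they fell at 19.9%, 7.69%, 21.8% and 8.65% and rose at 32.0%, 43.6%, 30.4% and 42.9%, so that more G positions rose than fell there on the whole-gene scale. On the mature rRNA scale this was reversed in rpa49Δ, where 20.4% of G positions rose and 26.3% fell. A positions were reversed too (22.0% rose and 26.5% fell), while C and U positions still rose more often than they fell. The mean at G positions was 157 ± 3.72 RPM in WT and 163 ± 3.41 in rpa49Δ, which overlapped, and 148 ± 1.07 in rpa34Δ, which lay below both (SD, n = 3).

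The median position held 127 ± 1.98 RPM in WT and 129 ± 3.27 in rpa34Δ, which overlapped, and 136 ± 2.12 in rpa49Δ, which lay above both (SD, n = 3). The Gini coefficient over positions, which is 0 where all positions hold equal reads and nearer 1 the more unequal they are, was 0.384 ± 0.0104 in WT, 0.397 ± 0.0125 in rpa34Δ and 0.417 ± 0.0043 in rpa49Δ (SD, n = 3). The rpa49Δ libraries lay above both other strains (exact permutation p = 0.1 for each), and the rpa34Δ libraries overlapped WT (exact permutation p = 0.2). The share of reads at the highest 1% of positions was 5.56%, 5.92% and 5.93%, and all strains overlapped. At the other end, position 5403 held 11.3 RPM in WT, 4.36 in rpa34Δ and 2.69 in rpa49Δ. These means rest on few reads (11, 15 and 16 in the rpa34Δ libraries and 8, 2 and 2 in rpa49Δ), and the position was not tested.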

How the data were processed

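Pol I NET-seq was analysed in 9 libraries, 3 per strain, with the strain taken from each title. The submitters' processing notes name STAR 2.7.1a, cutadapt 3.4, bcl2fastq 2.20.00, bedtools 2.28.0, SAMtools 1.6, R 4.0.2 and build R64. Tool settings, whether reads sharing a molecular identifier were counted once, and how reads from the repeated rRNA genes were placed: none of this is given in the sources used here. The authors deposited RPM for each replicate. Both tables carry the same WT values, and the ratio and p-value columns were not used. Within 0.01 read, at least 99.956% of each library's values were whole reads.

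Libraries were brought to 1000000 reads, first over the whole gene and a second time over mature rRNA. Positions averaging 10 RPM or more, and 138 stretches of 50 nucleotides counted from position 1, were fitted over the whole gene on log2(RPM + 10) with limma 3.58.1 (R 4.3.3; lmFit and eBayes with trend) on the 6 libraries of each comparison. The added 10 understates changes of low positions. Benjamini-Hochberg adjustment ran over the gene, and only the region's values are given. Stretches across the region's ends were not counted. On the recovered reads, edgeR 4.0.16 (quasi-likelihood test) called 235 positions higher and 161 lower in rpa34Δ, 413 and 168 in rpa49Δ, and 184 and 80 between the deletions. Values with 1 number per library went into two-sided exact permutation tests (10 splits, smallest p 0.1). On simulated data, 1.5-fold changes were recovered at 82.8% of 99 positions for rpa34Δ, 78.6% of 98 for rpa49Δ and 73.0% of 100 between the deletions, in simulations of 6494, 6488 and 6499 positions. Both groups were simulated from WT means with the WT spread between libraries, and few positions were changed. In the region, the SD of a position was at the median 8.40% of its mean in WT, 6.29% in rpa34Δ and 10.7% in rpa49Δ. The recovery rates therefore need not hold for the real comparisons.

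The region, the lists and the rules were chosen with earlier results of these data known. Named positions are the 10 highest in WT and, per comparison, the 5 largest called rises and falls with at least 50 RPM in the higher group. Named stretches are the 3 largest called rises and falls. The text describes those that carry the results. Sequences were read from the deposited base column. Alternatives covered the scale, the pseudocount, the minimum, the stretch length, the peak rule, edgeR, the replicate number as a block, 1 fit of all libraries, and each library left out.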

Additional observations from a re-analysis of the deposited data

How the results depend on the processing

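The counts of changed stretches and of peaks moved with the processing. For rpa49Δ against WT the 12 calls (11 higher and 1 lower) became 5 on the mature rRNA scale. With the region scaled on its own reads they became 7, of which 3 were higher and 4 lower. The calls numbered 28 in stretches of 25 nucleotides and 7 in stretches of 100. With 1 library left out they numbered 5 to 10, lowest without WT replicate 2. For rpa34Δ against WT the 4 calls became 10 and 2 in stretches of 25 and 100 nucleotides, and 2 to 4 with 1 library left out. Between the deletions the 4 became 2 on the mature rRNA scale, 15 in stretches of 25 nucleotides, and 2 to 4 with 1 library left out. In both of these the lowest count came without rpa34Δ replicate 1. Called positions ran from 256 to 395 for rpa34Δ against WT, from 471 to 571 for rpa49Δ against WT and from 166 to 276 between the deletions with 1 library left out, against 400, 585 and 260.

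Peaks numbered 31, 40 and 41 in WT, rpa34Δ and rpa49Δ at 3 times the local median and 2, 5 and 4 at 8 times. Stretch 5201 to 5250 in rpa34Δ against WT turned to -0.028 on the mature rRNA scale, -0.041 on the region's own reads and -0.016 with medians set equal, and position 4429 in rpa49Δ to 0.0026 with medians set equal. At the median position of stretch 5201 to 5250, rpa34Δ was called higher than WT (log2 change 0.17, adjusted p = 0.015 by limma). With 1 library left out, small changes that had not been called turned sign: position 4429 ran from -0.0703 to 0.0318 in rpa34Δ and -0.069 to 0.033 in rpa49Δ, 4815 from -0.0023 to 0.24 in rpa34Δ and -0.18 to 0.0596 in rpa49Δ, 4968 from -0.20 to 0.0241 in rpa34Δ, and 5200 from -0.13 to 0.0105 in rpa49Δ. The log2 ratio to the 3′ segment ran from -0.0119 to 0.0177 for rpa49Δ against WT, and the difference in the share at the highest 1% of positions from -0.187 to 0.231 points between the deletions. The causes were not tested.

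Replicate numbers did not pair the libraries: deviations of same-numbered libraries correlated at -0.28 to 0.00 for rpa34Δ with WT, -0.21 to 0.03 for rpa49Δ with WT and -0.04 to 0.25 between the deletions. Libraries of unlike number correlated at -0.31 to 0.42, -0.07 to 0.21 and -0.26 to 0.25, so some deviations were shared across strains under other pairings. With the replicate number as a block, 327, 561 and 266 positions and 4, 9 and 5 stretches were called in the 3 comparisons. Depth limited the rpa49Δ libraries most, where 1 read was worth up to 0.805 RPM.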
